A study of Arabidopsis thaliana with 18 samples.

Results

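The expression of 3 auxin response factor genes, *ARF6* (*At1g30330*), *ARF8* (*At5g37020*) and *ARF16* (*At4g30080*), was followed in *Arabidopsis thaliana* flowers of 3 genotypes at 2 stages. They were found by their gene codes, through the table that pairs array features with genes or a gene table of the study, and each had 1 feature (probe set) among the 22746 probe sets tested. The probe sets were 256311_at for *ARF6*, 249651_at for *ARF8* and 253662_at for *ARF16*. All 3 were named only by the study's table of genes that differed from wild type at stage 12, so the stage 12 difference between *arf6-2 arf8-3* and wild type helped to choose them and is described below without a test.

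Auxin response factors (ARFs) bind auxin response elements in promoters and switch auxin-responsive genes on or off. Aux/IAA proteins bind to ARFs and hold them inactive, and auxin causes the Aux/IAA proteins to be degraded. ARF6 and ARF8 are closely related activators that act redundantly in flower maturation, in which petals and stamen filaments elongate, anthers open and jasmonate is made, and their transcripts are cut under the guidance of miR167. ARF16 is counted among the repressor-type ARFs, and miR160 targets its transcript.

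The 6 groups were wild type, the *arf6-2 arf8-3* double mutant and the *myb21-5 myb24-5* double mutant, each as stage 12 buds, the largest closed buds, and as stage 13 flowers, which are the first open flowers in wild type. According to the study, the buds of both double mutants stay closed. All plants were of the Columbia ecotype, were otherwise untreated, and were grown under long days and harvested in the morning. The *arf6-2* and *arf8-3* alleles are T-DNA insertions in the first pair of genes studied here. *myb21-5* is a chemically induced premature stop codon, first isolated in an *arf6-2* background and then separated from it, and *myb24-5* is a T-DNA insertion; *MYB21* and *MYB24* encode R2R3-MYB transcription factors of the flower. Each group had 3 biological replicates, A, B and C, on 1 ATH1 array each, in all 18.

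Replicate A of the *myb21-5 myb24-5* stage 13 group went against its label. It differed from *arf6-2 arf8-3* stage 13 replicate A by an SD of 0.121 in log2 value over all probe sets. Replicates of one group otherwise differed by 0.236 to 0.481, and it differed from the other arrays of its labelled group by 0.538 and 0.551. It read 4.75 for *ARF6*, 5.68 for *ARF8* and 8.01 for *ARF16*, as the *arf6-2 arf8-3* arrays did. It was left out of every result below, which leaves 17 arrays and 2 replicates in the *myb21-5 myb24-5* stage 13 group, and for the 3 genes the values of its group with it kept are given beside the others.

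*ARF6* and *ARF8*, the mutated genes, were read first. In wild type, *ARF6* had log2 expression values of 9.77, 9.73 and 9.14 at stage 12 (replicates A, B and C) and of 9.57, 9.41 and 9.14 at stage 13. In *arf6-2 arf8-3* they were 4.84, 5.11 and 4.77 at stage 12 and 4.73, 5.27 and 4.79 at stage 13. In *myb21-5 myb24-5* they were 9.50, 9.73 and 9.43 at stage 12 and 9.48 and 9.21 in stage 13 replicates B and C. The 6 *arf6-2 arf8-3* arrays lay far below the other 11, and the ranges of the wild-type and *myb21-5 myb24-5* groups overlapped at both stages.

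*ARF8* read 9.94, 10.57 and 10.32 in wild-type stage 12 flowers and 9.90, 10.12 and 10.21 at stage 13. The *arf6-2 arf8-3* flowers had values of 5.73, 6.11 and 6.41 at stage 12 and of 5.86, 5.95 and 6.23 at stage 13. The *myb21-5 myb24-5* flowers had 9.69, 10.04 and 9.95 at stage 12 and, in stage 13 replicates B and C, 10.003 and 9.75. Again no *arf6-2 arf8-3* array came near those of the other genotypes.

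**Figure D1:**
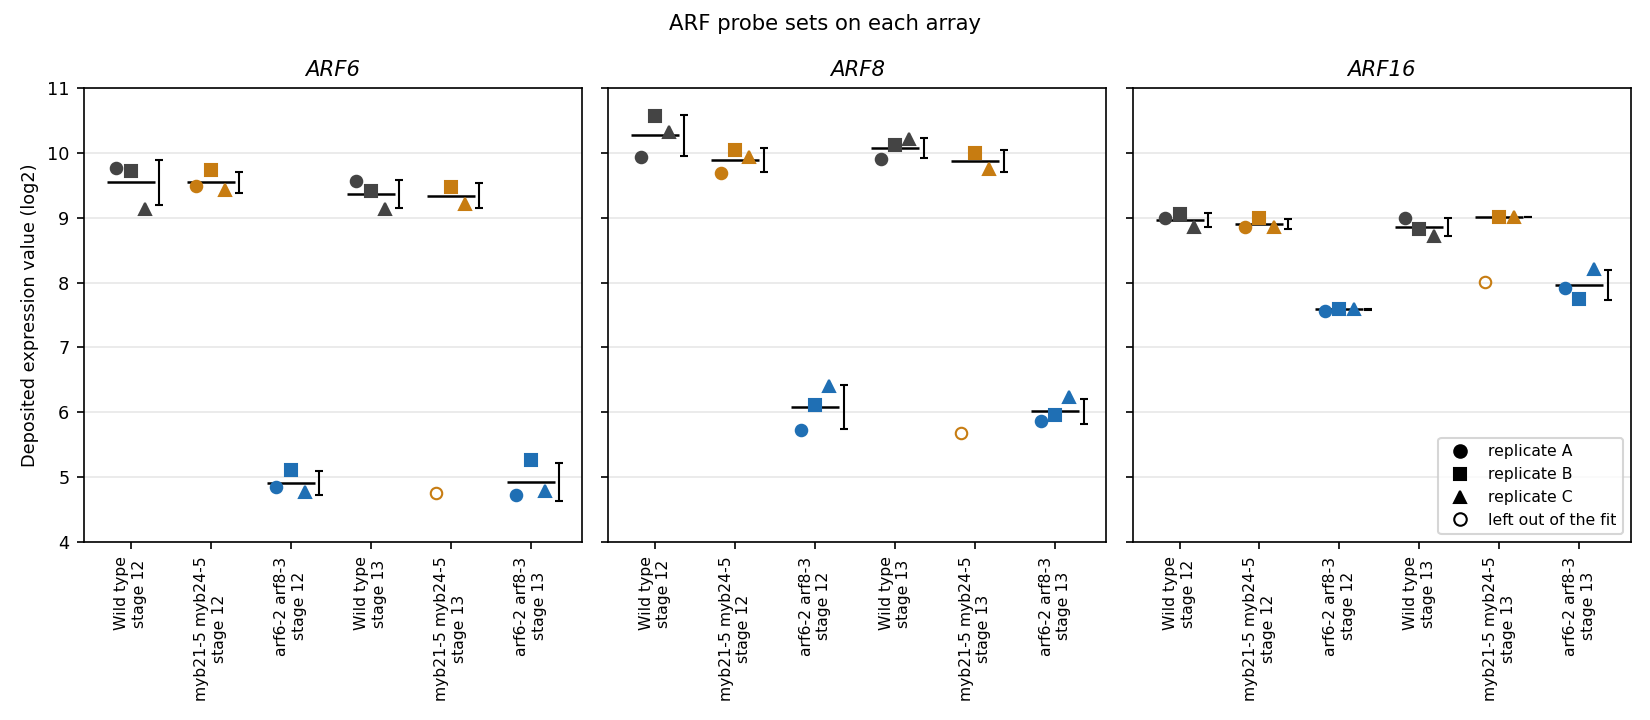
Deposited log2 expression values (vertical axis) of *ARF6*, *ARF8* and *ARF16* on each array of the 6 groups (horizontal axis); symbols mark the replicate letters, horizontal lines the group means and bars beside them 1 SD. All *arf6-2 arf8-3* arrays (blue) lie below every wild-type (grey) and *myb21-5 myb24-5* (orange) array in the fit, by more for *ARF6* and *ARF8* than for *ARF16*, and the open circle is the array left out, which reads like *arf6-2 arf8-3*.

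At stage 12, *ARF6* averaged 9.55 ± 0.35 (SD, n = 3) in wild type and 4.91 ± 0.18 (n = 3) in *arf6-2 arf8-3*, a difference of -4.64 on the log2 scale or 24.9-fold. *ARF8* averaged 10.28 ± 0.32 and 6.08 ± 0.34, a difference of -4.19 or 18.3-fold. At stage 13 *ARF6* was underexpressed 21.8-fold in *arf6-2 arf8-3* (log2 change -4.44, SE 0.19, limma adjusted p = 5.4e-10), and *ARF8* 16.7-fold (-4.06, SE 0.18, adjusted p = 1.25e-09). The *ARF6* means in *arf6-2 arf8-3*, 4.91 and 4.93, lie below the log2 value of 5 that served as the filter on low values in an alternative fit, and no detection call was available. The positions of the insertions relative to the probes are not given in the sources used here either, so the folds describe probe-set signal, and neither measure a residual transcript level nor check the alleles.

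In *myb21-5 myb24-5* flowers neither gene passed the test. *ARF6* differed from wild type by 0.00 at stage 12 (95% interval -0.39 to 0.40, limma adjusted p = 0.999) and by -0.03 at stage 13 (-0.47 to 0.42, adjusted p = 0.961). *ARF8* differed by -0.38 at stage 12 (95% interval -0.78 to 0.01, adjusted p = 0.377) and by -0.20 at stage 13 (-0.64 to 0.24, adjusted p = 0.640). *ARF8* was the lower in *myb21-5 myb24-5* in every same-letter pair of arrays, by -0.24, -0.52 and -0.38 in stage 12 pairs A, B and C and by -0.12 and -0.46 in stage 13 pairs B and C. Over the alternative fits the lowest limma adjusted p of *ARF8* at stage 12 was 0.0684, and none gave it a call. *ARF6* had no common direction, with pair differences at stage 12 of -0.28, 0.01 and 0.28. With the left-out array kept, the stage 13 differences became -1.56 for *ARF6* (adjusted p = 0.300) and -1.60 for *ARF8* (adjusted p = 0.236), and neither passed.

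Neither *ARF6* nor *ARF8* changed detectably between the stages. From stage 12 to 13 *ARF6* differed by -0.17 in wild type (95% interval -0.57 to 0.22, limma adjusted p = 0.732), by 0.02 in *arf6-2 arf8-3* (-0.38 to 0.42, adjusted p = 0.982) and by -0.21 in *myb21-5 myb24-5* (-0.65 to 0.24, adjusted p = 0.626). For *ARF8* the 3 differences were -0.20 (-0.59 to 0.20, adjusted p = 0.679), -0.07 (-0.46 to 0.32, adjusted p = 0.922) and -0.02 (-0.46 to 0.42, adjusted p = 0.976). With the left-out array kept, the stage differences in *myb21-5 myb24-5* became -1.74 for *ARF6* (adjusted p = 0.241) and -1.41 for *ARF8* (adjusted p = 0.309). In order of group means, *ARF6* ran from 4.91 and 4.93 in *arf6-2 arf8-3* at stages 12 and 13, through 9.34 in *myb21-5 myb24-5* and 9.37 in wild type at stage 13, to 9.55 in both genotypes at stage 12. *ARF8* ran from 6.01 and 6.08 in *arf6-2 arf8-3* at stages 13 and 12, through 9.88 and 9.89 in *myb21-5 myb24-5* at the same stages, to 10.08 and 10.28 in wild type. Among the 4 groups of the other genotypes the arrays overlapped from each group to the next.

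The next question was whether *ARF16*, which carried no mutation in these plants, followed the loss of *ARF6* and *ARF8*, and whether it did so in *myb21-5 myb24-5* too. *ARF16* read 8.99, 9.05 and 8.86 in wild-type stage 12 flowers and 9.001, 8.83 and 8.73 in wild-type stage 13 flowers. In *arf6-2 arf8-3* it read 7.57, 7.59 and 7.60 at stage 12, and 7.92, 7.75 and 8.21 at stage 13. In *myb21-5 myb24-5* it read 8.85, 8.999 and 8.86 at stage 12, and 9.02 and 9.02 in stage 13 replicates B and C. The highest *arf6-2 arf8-3* array thus lay below the lowest array of any other group, and the wild-type and *myb21-5 myb24-5* arrays shared a narrow range at stage 12.

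At both stages *ARF16* was lower in the *arf6-2 arf8-3* double mutant than in wild type. At stage 12 its mean was 7.59 ± 0.01 (SD, n = 3) against 8.97 ± 0.10 in wild type (n = 3), a difference of -1.38 or 2.60-fold, which left 38.4% of the wild-type level on the linear scale. At stage 13 it was 7.96 ± 0.23 against 8.85 ± 0.14 (n = 3 each), a fall to 53.9% of wild type (log2 change -0.89, SE 0.11, 95% interval -1.12 to -0.66, limma adjusted p = 3.02e-05). The stage 13 difference was 1.85-fold and does not reach the 2-fold cutoff that the study used at stage 12. Same-letter pairs at stage 13 gave -1.08, -1.08 and -0.52 for A, B and C, so replicate C showed the least decrease. In these whole flowers, fewer cells expressing a gene and less RNA per cell cannot be told apart.

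At stage 13, all 3 of the 3 genes were called lower in *arf6-2 arf8-3* than in wild type, where 9.30% of all probe sets were called lower and 10.7% higher. *ARF6* and *ARF8* carry the insertions that define this genotype. *ARF16* carried no mutation, but it was named through the study's table of genes that differed at stage 12. A low value in the same genotype at stage 13 is therefore not independent of that choice, and these shares are no base rate for any of the 3. The corresponding shares at stage 12, where the genes were chosen, were 6.86% lower and 6.23% higher, and without wild-type stage 12 replicate A the 1416 higher calls of that stage became 918. The median log2 change over all 22746 probe sets was 0.01 at stage 12 and 0.00 at stage 13. *ARF16* at stage 13 was the 1008th change from the largest decrease.

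In *myb21-5 myb24-5*, *ARF16* differed from wild type by -0.06 at stage 12 (SE 0.11, 95% interval -0.30 to 0.17, limma adjusted p = 0.914) and by 0.16 at stage 13 (SE 0.12, -0.10 to 0.42, adjusted p = 0.478). At stage 13 both arrays of the double mutant read 9.02, above the highest wild-type array at 9.001, but the difference did not pass the test. These intervals leave out a decrease of the size measured in *arf6-2 arf8-3*. In the *myb21-5 myb24-5* comparisons 0 of the 3 genes were called by limma, and 0 had an unadjusted p under 0.05. Over all probe sets 2.18% were called lower and 1.28% higher at stage 12, and 5.67% and 5.04% at stage 13. The 496 lower and 291 higher calls at stage 12 became 321 and 157 without replicate B of the double mutant, and the higher calls became 148 without replicate B of wild type. The 1289 lower and 1147 higher calls at stage 13 became 796 and 622 without replicate B of the double mutant, and 749 and 544 without replicate C. With the left-out array kept, the stage 13 difference of *ARF16* turned to -0.17 (adjusted p = 0.738).

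The mutants were also compared directly. At stage 12 all 3 genes were lower in *arf6-2 arf8-3* than in *myb21-5 myb24-5*, *ARF6* by -4.64, *ARF8* by -3.81 and *ARF16* by -1.32. That comparison uses the *arf6-2 arf8-3* arrays that helped to choose the genes and is given as a description, with 3.90% of all probe sets called lower. At stage 13 all 3 were lower again, *ARF6* by -4.42, *ARF8* by -3.86 and *ARF16* by -1.06 (SE 0.12, 2.08-fold, limma adjusted p = 4.19e-05), against 6.24% of probe sets called lower, whose number, 1419, became 882 without stage 13 replicate B and 771 without replicate C of *myb21-5 myb24-5*. These comparisons use the same *arf6-2 arf8-3* arrays as those with wild type, and *ARF6* and *ARF8* are the genes mutated in them. With the left-out array kept in the *myb21-5 myb24-5* group the stage 13 differences were -2.88, -2.47 and -0.72 and none passed (adjusted p = 0.182, 0.186 and 0.182).

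**Figure D2:**
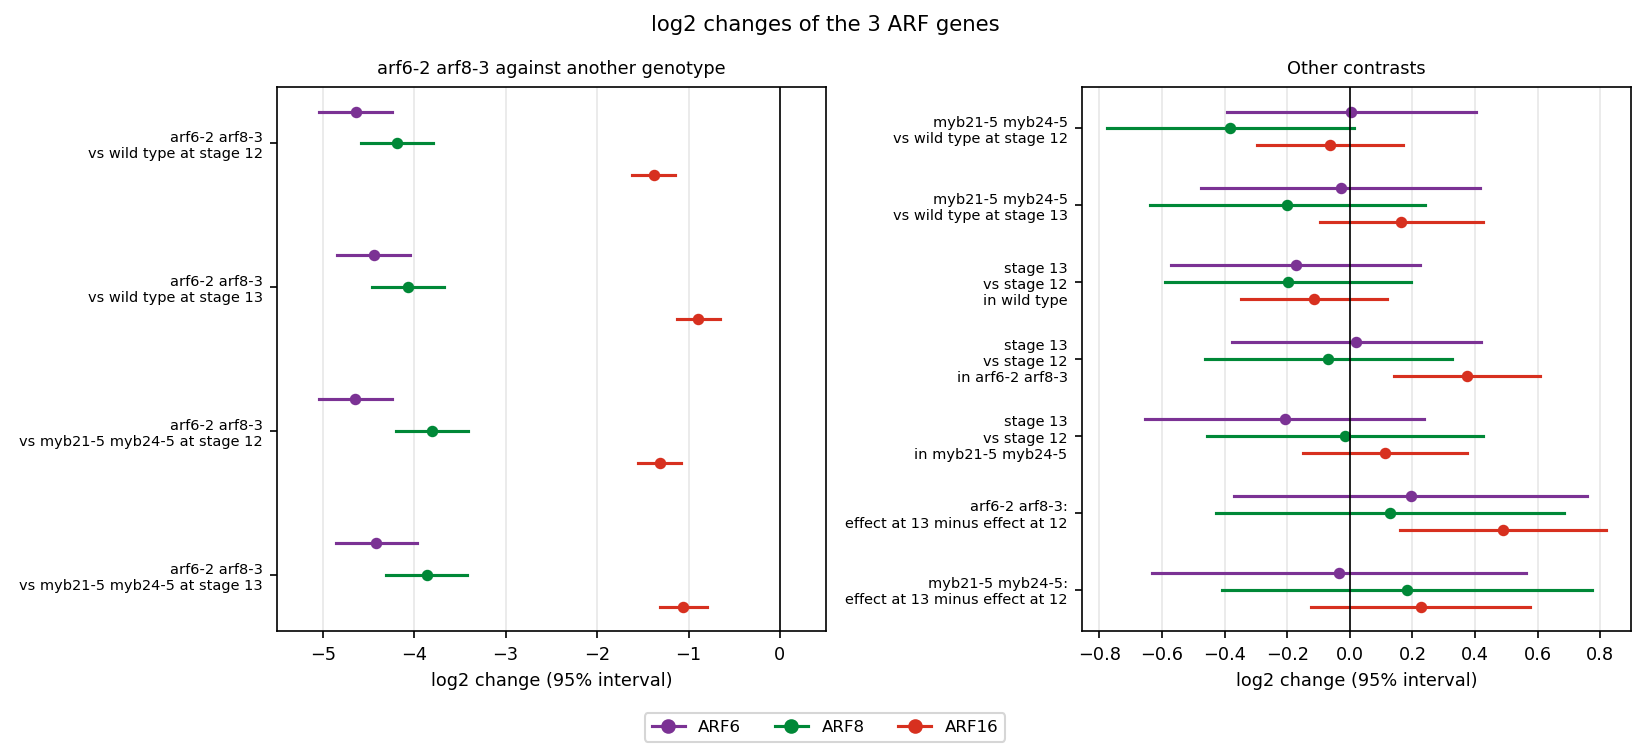
Differences between groups in log2 expression (horizontal axis, with 95% intervals) for *ARF6*, *ARF8* and *ARF16* in the 4 contrasts that compare *arf6-2 arf8-3* with another genotype (left) and in the other 7 (right, on an expanded scale). On the left all intervals lie below 0, and on the right all intervals but those of *ARF16* between the stages in *arf6-2 arf8-3* (0.37) and in the change of the *arf6-2 arf8-3* effect (0.49) include 0.

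Between the stages, *ARF16* in *arf6-2 arf8-3* was 0.37 higher at stage 13 than at stage 12 (SE 0.11, 1.30-fold), and each stage 13 array read above each stage 12 array. This did not pass the adjusted threshold (limma adjusted p = 0.0816), and it did pass with the replicate letter as a block (adjusted p = 0.0469). In wild type the stage difference of *ARF16* was -0.11 (SE 0.11, adjusted p = 0.687) and in *myb21-5 myb24-5* it was 0.11 (SE 0.12, adjusted p = 0.656), or -0.22 with the left-out array kept (adjusted p = 0.601). Between the stages 9.71% of all probe sets were called in either direction in wild type, 2.53% in *arf6-2 arf8-3* and 3.62% in *myb21-5 myb24-5*, and 0 of the 3 genes was called by limma in any genotype. At an unadjusted p under 0.05 the call was *ARF16* in *arf6-2 arf8-3*. The 823 calls over all probe sets in *myb21-5 myb24-5* became 344 and 298 without its stage 12 replicates A and B, and 186 and 76 without its stage 13 replicates B and C. The 575 in *arf6-2 arf8-3* became 175, 38 and 1852 without its stage 12 replicates A, B and C, 251, 306 and 37 without its stage 13 replicates A, B and C, and 350 to 372 without wild-type stage 13 replicate B or either *myb21-5 myb24-5* stage 13 array.

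The test of whether the *arf6-2 arf8-3* effect itself differed between the stages gave 0.49 for *ARF16* (SE 0.15, 95% interval 0.16 to 0.82, limma adjusted p = 0.152), 0.19 for *ARF6* (SE 0.26, adjusted p = 0.939) and 0.13 for *ARF8* (SE 0.26, adjusted p = 0.969). The same test for *myb21-5 myb24-5* gave 0.23 for *ARF16* (SE 0.16, adjusted p = 0.629), -0.03 for *ARF6* (adjusted p = 0.978) and 0.18 for *ARF8* (adjusted p = 0.859). None of the 3 passed by limma, *ARF16* in *arf6-2 arf8-3* alone had an unadjusted p under 0.05, and 1.94% and 2.45% of all probe sets passed for the *arf6-2 arf8-3* and the *myb21-5 myb24-5* effect. The 442 for *arf6-2 arf8-3* became 252 to 292 without wild-type stage 12 replicate A or C, wild-type stage 13 replicate B or C, *arf6-2 arf8-3* stage 12 replicate B or stage 13 replicate A or B, and the 557 for *myb21-5 myb24-5* became 186 to 326 without its stage 12 replicate B, either of its stage 13 arrays or wild-type stage 13 replicate B. With the left-out array kept, the *myb21-5 myb24-5* values were -0.11 for *ARF16*, -1.57 for *ARF6* and -1.22 for *ARF8* (adjusted p = 0.956, 0.730 and 0.788). Since the stage 12 arrays of *arf6-2 arf8-3* and wild type helped to choose the genes, this test and the stage difference in *arf6-2 arf8-3* are not independent of that choice.

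The order of *ARF16* group means was 7.59 and 7.96 in *arf6-2 arf8-3* at stages 12 and 13, then 8.85 in wild type at stage 13, 8.90 in *myb21-5 myb24-5* at stage 12, 8.97 in wild type at stage 12 and 9.02 in *myb21-5 myb24-5* at stage 13. Of these the first did not overlap the next, and neither did the second. The 4 highest groups overlapped in their arrays, except that both stage 13 *myb21-5 myb24-5* arrays read above all wild-type stage 13 arrays and all *myb21-5 myb24-5* stage 12 arrays.

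The spread between replicates was not the same for the 3 genes. In the *arf6-2 arf8-3* stage 12 group the SD was 0.01 for *ARF16* but 0.34 for *ARF8* and 0.18 for *ARF6*. *ARF8* was lowest in replicate A in all 5 groups that have one, and *ARF6* was lowest in replicate C in 5 of 6 groups and never highest there. *ARF16* had no such order, and was lowest in C in 3 groups, in A in 2 and in B in 1.

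**Figure D3:**
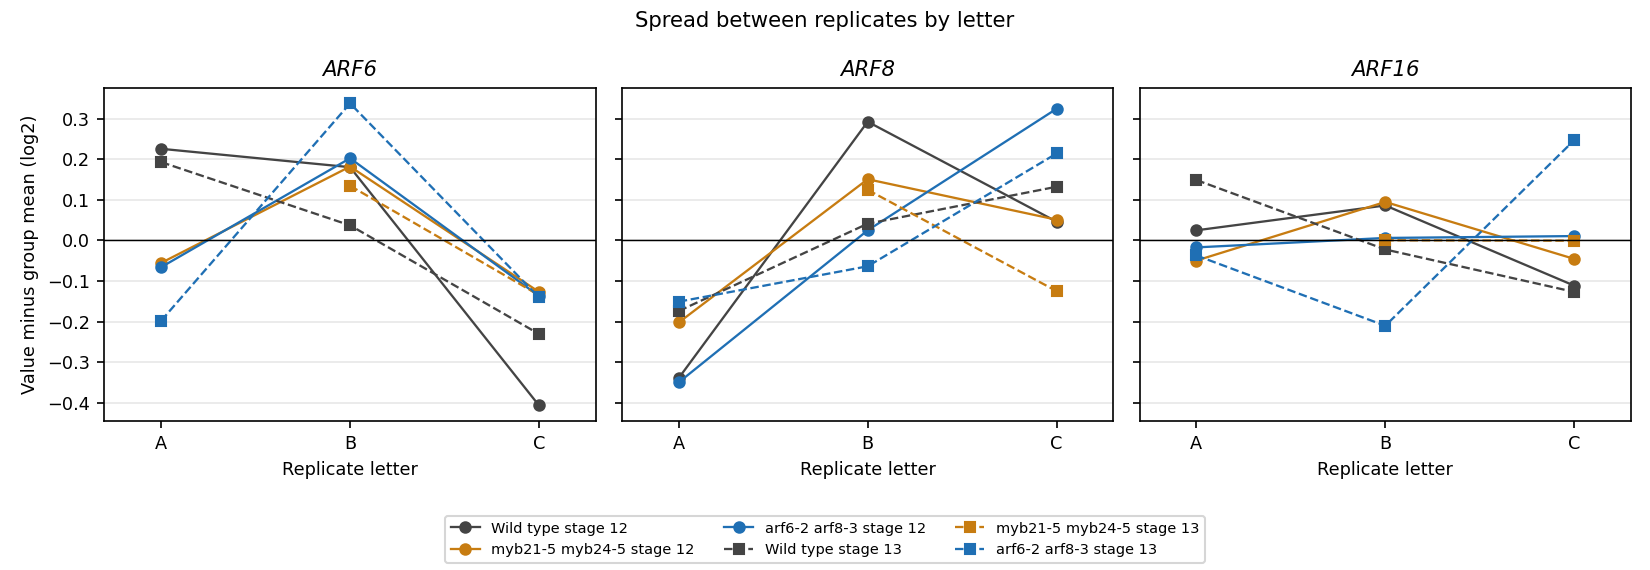
Each array's log2 value minus its group mean (vertical axis) by replicate letter (horizontal axis) for *ARF6*, *ARF8* and *ARF16*; lines join arrays of one group, solid at stage 12 and dashed at stage 13. *ARF8* lies below 0 in replicate A in all 5 groups and *ARF6* lies below 0 in replicate C in all 6, whereas *ARF16* lines cross.

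Over the 17 arrays, the genes with a named probe set whose values were most like those of *ARF6* were *At3g12000* (Pearson r = 0.992), *ARF8* (0.987), *JAZ10* (0.982), a repressor of jasmonate signalling, *MYB21* (0.980) and *At1g02810* (0.979). For *ARF8* they were *At3g12000* (0.992), *ARF6*, *At5g48900* (0.983), *At1g02810* (0.982) and *MYB21* (0.982). For *ARF16* they were *At3g12000* (0.961), *ARF6* (0.960), *ARF8* (0.956), *scpl47* (0.954), named as a serine carboxypeptidase-like gene, and *MYB21* (0.953). All these share 6 low *arf6-2 arf8-3* arrays.

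Outside *arf6-2 arf8-3* the likeness was of another kind. Over the other 11 arrays r was 0.02 between *ARF6* and *ARF8*, 0.63 between *ARF6* and *ARF16* and -0.03 between *ARF8* and *ARF16*, from values that span little more than the replicate spread. Most like *ARF6* over these arrays were *At1g11940* (0.900), *At2g01480* (0.898), *HAT3.1* (0.898), *At4g31040* (0.896) and *PRL* (0.893), and most like *ARF8* were *At2g20110* (0.928), *At1g27120* (0.922), *PIR121* (0.921), *At3g09080* (0.907) and *At4g38200* (0.905). None of these genes was among the 5 most like the same gene over all 17 arrays. All were picked as the highest r among the named probe sets over only 11 arrays, and no test of them was made.

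Genes that neighbour the 3 loci were read in the same contrasts. In the TAIR10.1 annotation, among the 3 protein-coding genes on either side, 4 named genes lie beside *ARF6*, 4 beside *ARF8* and 1 beside *ARF16*. None was called in *arf6-2 arf8-3* against wild type at either stage by limma. At an unadjusted p under 0.05 there were 2, *At1g30290* beside *ARF6* at stage 12 (log2 change 0.28, adjusted p = 0.122) and *At5g37010* beside *ARF8* at stage 13 (-0.31, adjusted p = 0.115). The largest absolute change was that of *At1g30350* at stage 13 (0.65, SE 0.79).

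Among the partners of ARFs, the Aux/IAA repressors could be read for 13 of 29 genes, 7 named by the platform table and 6 only by the study's table of genes chosen on these arrays. Of the other ARFs 0 of 20 was named, and the same holds for 0 of 6 auxin receptors and 0 of 5 TOPLESS-type corepressors, which were not analysed here. *SE*, which acts in miRNA processing, was the 1 named gene of 6 in that list, and its log2 change in *arf6-2 arf8-3* was -0.19 at stage 12 and -0.08 at stage 13 (adjusted p = 0.430 and 0.767).

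The 6 Aux/IAA genes of the study's table were all called lower in *arf6-2 arf8-3* at both stages, with a median log2 change of -1.36 at stage 12 and -3.12 at stage 13, but they were chosen on these arrays and are no independent evidence of direction. With the left-out array kept, 4 Aux/IAA genes were called lower at stage 12. *IAA7* averaged 11.75 in wild type and 8.24 in *arf6-2 arf8-3* at stage 12 (-3.51), and 12.58 and 8.49 at stage 13 (-4.09, limma adjusted p = 5.4e-10). *IAA19* fell from 10.28 to 8.48 at stage 12 (-1.81) and from 11.31 to 7.74 at stage 13 (-3.56, adjusted p = 2.67e-07). These genes are induced by auxin and encode repressors of ARFs.

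In *myb21-5 myb24-5*, where the 3 ARF genes were not called, *IAA6* (-1.59, limma adjusted p = 0.0205) and *IAA19* (-1.24, adjusted p = 0.0192) of those 6 were called lower at stage 12. A stage 12 difference in either double mutant could place a gene in that set, so neither call is independent evidence of direction. Neither call held in every fit without 1 stage 12 array: the count of Aux/IAA genes called lower then ranged from 0 to 2. It was 0 without wild-type B or C or *myb21-5 myb24-5* B or C, and 1 without replicate A of either group. At stage 13 all 6 were called lower (median -1.39), with *IAA6* at -3.89 (adjusted p = 1.0e-05), and *IAA7* at -1.29 (adjusted p = 0.00034). Of all 13 Aux/IAA genes, 7 were called lower there, where 5.67% of all probe sets were called lower. That count includes the 6 genes chosen on these arrays, so it is no rate for the family. Among the genes named by the platform table, *IAA18* alone was called lower and *IAA33* alone higher. Both mutants were compared with the same wild-type arrays.

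The 7 Aux/IAA genes named by the platform table had a median log2 change in *arf6-2 arf8-3* of 0.07 at stage 12 and -0.05 at stage 13. Of them, *IAA20*, *IAA29*, *IAA30*, *IAA31* and *IAA34* had low means in wild type, 4.94 to 5.84 at stage 12 and 5.12 to 5.83 at stage 13. These lie near the log2 value of 5 of the low filter, so the medians say little about whether such genes fall. *IAA18* was the 1 gene called at stage 12 (0.77, limma adjusted p = 0.00037), and *IAA20* the 1 gene called at stage 13 (-0.37, adjusted p = 0.0250). In *myb21-5 myb24-5* none of the 7 was called at stage 12, and at stage 13 *IAA18* was lower (-0.61, adjusted p = 0.0057) and *IAA33* higher (2.88, adjusted p = 0.00014). The left-out array read 5.68 for *IAA33* against 8.66 and 8.55 in replicates B and C, and with it kept 0 Aux/IAA genes were called higher there and 6 lower.

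**Figure D4:**
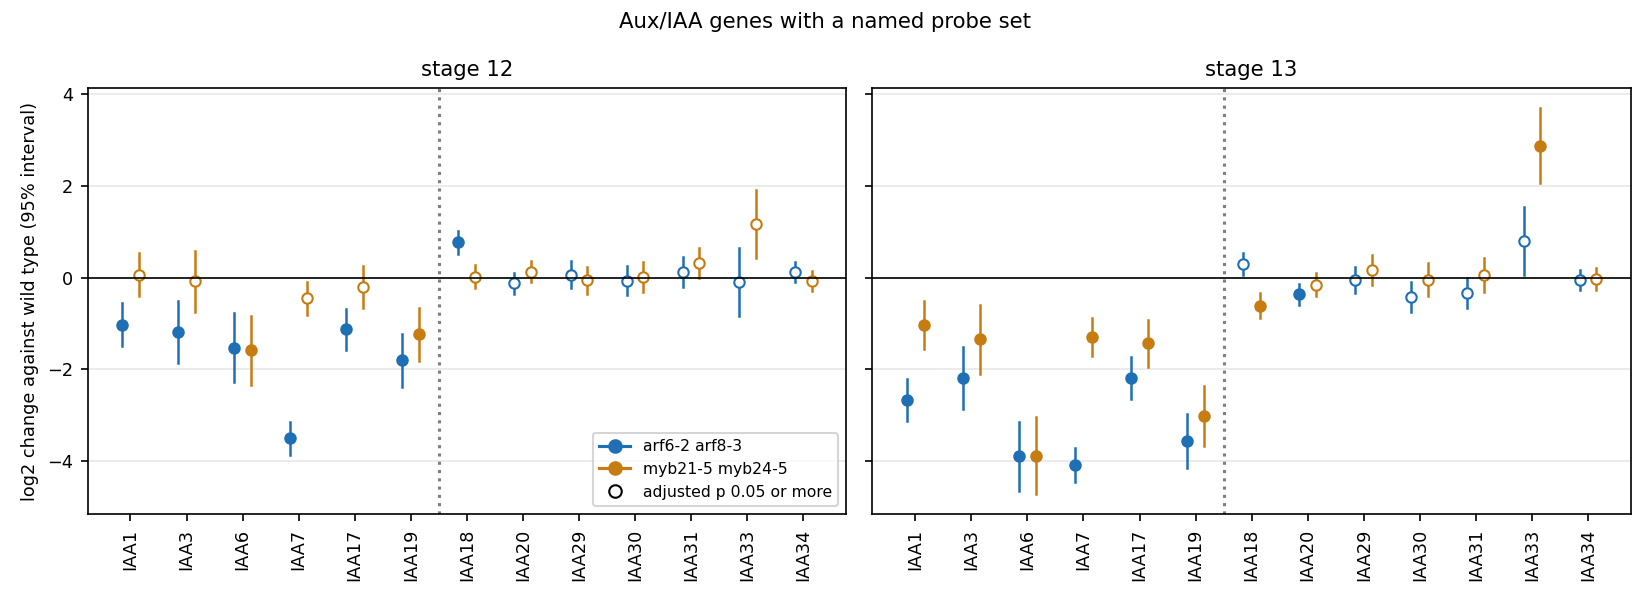
log2 changes against wild type (vertical axis, with 95% intervals) of the 13 Aux/IAA genes with a named probe set (horizontal axis) in *arf6-2 arf8-3* (blue) and *myb21-5 myb24-5* (orange) at stage 12 (left) and stage 13 (right); open circles did not pass the adjusted p of 0.05. The 6 genes left of the dotted line were named by the study's own table, and all are lower in *arf6-2 arf8-3* at both stages, whereas of the 7 to its right 1 passed in *arf6-2 arf8-3* at each stage (*IAA18*, then *IAA20*) and *IAA18* and *IAA33* passed in *myb21-5 myb24-5* at stage 13. Among those 7, open circles whose intervals exclude 0 are, in *arf6-2 arf8-3* at stage 13, *IAA30* (-0.43), *IAA31* (-0.34), *IAA18* (0.30) and *IAA33* (0.79), and in *myb21-5 myb24-5* at stage 12 *IAA33* (1.16). *IAA20*, *IAA29*, *IAA30*, *IAA31* and *IAA34* read low in wild type as well.

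Markers of flower tissues differed in part between *arf6-2 arf8-3* and wild type. Some *myb21-5 myb24-5* arrays shifted the same way at stage 12, but the pollen genes went the other way at stage 13. Of 9 pollen genes 4 were named, and their summed linear level ran from 750 to 1237 in *arf6-2 arf8-3* stage 12 buds against 1930 to 2768 in wild type. Of the 4, 3 were called lower (*AGL66* -1.28, *ACT12* -1.26, *ACT4* -1.15), where 6.86% of all probe sets were called lower. *ACT4* was named only by the study's table of genes chosen on these arrays, so its call is no independent evidence. At stage 13 the sums overlapped, at 486 to 940 and 676 to 1144, and *ACT12* alone was called (-1.01). Of 5 tapetum genes 2 were named, and in stage 12 *arf6-2 arf8-3* arrays A, B and C they summed to 305, 798 and 55.2 against 43.4 to 56.2 in wild type, with *A9* called higher (2.74). In stage 12 *myb21-5 myb24-5* arrays A, B and C the tapetum sums were 164, 198 and 48.9. The pollen sums there were 2398, 1170 and 1407, and none of these genes was called by limma. At stage 13 the pollen sums of *myb21-5 myb24-5* replicates B and C were 1261 and 1711, above the wild-type range. Of the 4 pollen genes *AGL66* alone was called there, as higher (1.61, limma adjusted p = 0.0065), where 5.04% of all probe sets were called higher. On *arf6-2 arf8-3* stage 12 arrays A, B and C the pollen sums were 1237, 750 and 1133, and *ARF16* read 7.57, 7.59 and 7.60. Whether *ARF16* and these markers are linked was not tested.

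Of 13 floral organ identity genes 2 were named. *CRC*, which acts in carpels and nectaries, was lower in *arf6-2 arf8-3* at stages 12 and 13 (-1.32 and -2.13), and *SPT*, which acts in carpel margins, was higher (0.95 and 0.96). *CRC* was named only by the study's table of genes chosen on these arrays, so its decrease is no independent evidence. In *myb21-5 myb24-5* the changes were 0.15 and 0.79 for *CRC* and 0.48 and 0.34 for *SPT*. Of these, *CRC* at stage 13 was called (limma adjusted p = 0.0477). No photosynthetic gene of the 5 listed was named. The part of these tissues in the values of *ARF16* was not tested. The *MYB21* and *MYB24* transcripts, mutated in the other genotype, differed there from wild type by -1.40 (limma adjusted p = 0.0067) and -1.03 (adjusted p = 0.0844) at stage 12, and by -0.46 (adjusted p = 0.398) and 0.93 (adjusted p = 0.0997) at stage 13.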

How the data were processed

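Biotin-labelled RNA of stage 12 and 13 flowers of 3 genotypes was hybridised to 18 ATH1 arrays. The authors scanned them with MAS5, corrected the background and normalised with RMA, and the deposited values are on the log2 scale, 1 per probe set; they were used as deposited, with 22746 non-control probe sets. Arrays give no read depth, and 3 arrays per group limit the precision. No source used here gives the genome build of the files. Of the probe sets, 13513 matched 1 gene in the platform table, 503 several, and 514 only the study's gene tables, from which no value was taken; 8719 had no single name.

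With limma 3.58.1 in R 4.3.3, lmFit and eBayes were fitted to 17 arrays with 6 group means and 11 contrasts. The two-sided p-values were adjusted over all probe sets by the Benjamini-Hochberg method, and calls needed an adjusted p under 0.05. The fit was tested on simulated data.

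The genes and gene lists were chosen with earlier results of these data known. Genes named were the 3 members, up to 3 genes per list with the lowest adjusted p in *arf6-2 arf8-3*, the 5 genes most correlated with each member, chromosomal neighbours, and, after their values were seen, Aux/IAA genes whose calls differed. Of several probe sets of a gene, that with the highest mean was used; the second of *MYB21* was also called at stage 13 (-0.98 in *myb21-5 myb24-5*). Alternatives changed the array set, the test, the scaling, the array weights, the replicate block, the filter and the thresholds.

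Same-letter arrays deviated together (r of 0.231 to 0.743 for each of the 3 letters) in 5 of 6 contrasts with 3 letters, and not in *arf6-2 arf8-3* against wild type at stage 12 (r = -0.02 for B). What the letters mark is not given in the labels.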

Additional observations from a re-analysis of the deposited data

How the results depend on the processing

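Of the differences of the 3 genes between groups, 430 values under alternatives other than leaving out 1 array kept direction and side of the threshold, 9 reversed, 3 gained and 8 lost a call. Leaving out 1 array left 543 the same by these rules and reversed 18. The lower values of all 3 genes in *arf6-2 arf8-3* than in wild type kept their direction under every alternative.

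With the left-out array kept, *ARF16* in *myb21-5 myb24-5* turned to -0.17 against wild type at stage 13 and to -0.22 between the stages, the change of the *myb21-5 myb24-5* effect turned to -1.22 for *ARF8* and -0.11 for *ARF16*, and *arf6-2 arf8-3* against the other mutant at stage 13 lost its calls (-2.88 for *ARF6*, -2.47 for *ARF8*, -0.72 for *ARF16*). With the replicate block added, a choice made after seeing the data, these values came with adjusted p = 0.0983 for the last 3 and 0.512 to 0.895 for the others. *ARF16* between the stages in *arf6-2 arf8-3* gained a call with the replicate block (0.37, adjusted p = 0.0469), with array weights (0.33, adjusted p = 0.0491) and in the methods' t-test without adjustment (0.37); its adjusted p ranged from 0.0469 to 0.443. The block changed no other call of these genes. Array weights turned *ARF8* between these stages to 0.072. The methods' t-test after adjustment lost *ARF16* in *arf6-2 arf8-3* against the other mutant at stage 13 (-1.06, adjusted p = 0.104), and a 2-fold cutoff lost it against wild type (-0.89). The cause was not tested.

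Leaving out 1 array turned differences near 0. *ARF6* ranged from -0.20 to 0.12 in *myb21-5 myb24-5* against wild type at stage 12, from -0.16 to 0.10 at stage 13, from -0.17 to 0.17 in the change of that effect and from -0.15 to 0.12 between the stages in *arf6-2 arf8-3*. *ARF8* ranged from -0.24 to 0.093 there, from -0.14 to 0.11 between the stages in *myb21-5 myb24-5* and from -0.046 to 0.30 in the change of the *arf6-2 arf8-3* effect.

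Counts over all probe sets moved more (ranges over the alternatives in parentheses). Lower and higher calls in *arf6-2 arf8-3* against wild type were 1561 and 1416 at stage 12 (170 to 2322 and 63 to 2496) and 2116 and 2423 at stage 13 (846 to 3052 and 625 to 3644), and in *myb21-5 myb24-5* 496 and 291 (17 to 1486 and 7 to 1042) and 1289 and 1147 (100 to 2090 and 95 to 2180). Lower calls between the mutants were 886 at stage 12 (53 to 1589) and 1419 at stage 13 (0 to 2955). Stage calls were 2209 in wild type (242 to 3873), 823 in *myb21-5 myb24-5* (1 to 3157) and 575 in *arf6-2 arf8-3* (1 to 2894). Centring on *TIP41L*, the 1 named reference gene of 3, a choice made after seeing the data, moved their lower share from 44.9% to 27.9%. Changes of effect were 442 (142 to 1231) and 557 (157 to 1528).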
